A study of Mus musculus with 2 samples.

Results

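The immune checkpoint genes described here are 7 receptors and 2 ligands that restrain lymphocytes: Pdcd1, Ctla4, Tigit, Lag3, Havcr2, Btla and Cd160, and the ligands Cd274 and Pdcd1lg2. They were taken by symbol from the deposited gene list, and all 9 were found, each as 1 of 55357 listed genes. They were measured in lungs of female Balb/C mice that carried orthotopic K7M2 osteosarcoma, a transplanted mouse bone tumour line known for spreading to the lung. One group received 1V209-Cho-Lip, a liposome carrying the TLR7 agonist 1V209, and the other received PBS. Lungs of 3 mice were pooled into a single 10x Genomics single-cell library for each group. The age of the mice, the dose and the time of sampling are not given in the sources used here.

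Checkpoint receptors are found on T, NK and B cells after activation and on some myeloid cells, and their ligands are found on antigen-presenting cells, macrophages and other cells of inflamed tissue. Binding of ligand to receptor lowers antigen-receptor signalling or competes with co-stimulatory receptors. In the lung, alveolar macrophages are a known source of PD-L1, regulatory T cells carry CTLA-4 at rest, and long-lived inhibitory receptor expression marks T cells that meet antigen repeatedly, as in tumours.

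Each group was 1 library, so no test between groups was possible, and no difference below can be assigned to the treatment rather than to the library. Levels are counts of unique molecular identifiers (UMIs, single captured transcripts) divided by all UMIs of the same cells and written as CPM. Brackets give exact 95% intervals, Poisson for levels, conditional binomial for ratios and Clopper-Pearson for shares of cells. They cover counting error only and treat UMIs as independent, although UMIs of 1 cell are not. After filtering, the 1V209-Cho-Lip library held 12328 cells with 46476852 UMIs and a median of 2510 UMIs per cell, and the PBS library held 12642 cells with 45586276 UMIs and a median of 2197. The libraries shared 268 barcodes, 1.95% of those in the 1V209-Cho-Lip library and 1.83% of those in the PBS library. Clusters were named from markers that include no checkpoint gene, and checkpoint genes were left out of the clustering. Thresholds for naming and division were set after clusters and values were seen, so the classes are not fully independent of those values. Classes with the defining markers of lung epithelium (AT1-like, AT2-like, club-like) and of alveolar macrophages were present in both libraries. Below, treated stands for the 1V209-Cho-Lip library and its cells, and PBS for the PBS library and its cells.

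On GRCm38 (mm10) the GENCODE vM21 annotation lists all 9 as protein-coding genes. The ligand genes are neighbours on the plus strand of chromosome 19, Cd274 (ENSMUSG00000016496) at chr19:29367455-29388095 and Pdcd1lg2 (ENSMUSG00000016498) at chr19:29410919-29471161. On chromosome 1 lie Pdcd1 (ENSMUSG00000026285), minus strand at chr1:94038305-94052553, and Ctla4 (ENSMUSG00000026011), plus strand at chr1:60887000-60915832. Chromosome 16 holds Tigit (ENSMUSG00000071552), minus strand at chr16:43648867-43664146, and Btla (ENSMUSG00000052013), plus strand at chr16:45224315-45257670. Lag3 (ENSMUSG00000030124) is on the minus strand at chr6:124904361-124911705, Havcr2 (ENSMUSG00000020399) on the plus strand at chr11:46454935-46481255, and Cd160 (ENSMUSG00000038304) on the minus strand at chr3:96798763-96829351. Cd274, Pdcd1lg2, Ctla4 and Cd160 each overlap 1 other listed gene, and whether the counting used strand is not given in the sources used here.

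Promoter sequences of 8 of the 9 genes were found in RefSeq (GRCm38.p6), from 250 bases before to 50 bases after the transcript start. Promoters of 4 are shown, the pair of neighbouring ligand genes because their levels across cell classes differ, and Ctla4 and Tigit because both differ most between libraries in the same class of T cells. Capitals mark GGAAA on either strand, the core bound by NFAT, a factor of T-cell activation.
Cd274 (chr19:29367188-29367487, plus strand): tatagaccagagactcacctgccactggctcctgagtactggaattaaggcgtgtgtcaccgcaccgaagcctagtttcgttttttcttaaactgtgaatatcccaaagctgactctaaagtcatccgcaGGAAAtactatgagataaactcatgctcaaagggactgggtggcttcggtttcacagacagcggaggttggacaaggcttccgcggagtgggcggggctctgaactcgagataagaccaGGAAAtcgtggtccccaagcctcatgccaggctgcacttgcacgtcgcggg
Pdcd1lg2 (chr19:29410669-29410968, plus strand): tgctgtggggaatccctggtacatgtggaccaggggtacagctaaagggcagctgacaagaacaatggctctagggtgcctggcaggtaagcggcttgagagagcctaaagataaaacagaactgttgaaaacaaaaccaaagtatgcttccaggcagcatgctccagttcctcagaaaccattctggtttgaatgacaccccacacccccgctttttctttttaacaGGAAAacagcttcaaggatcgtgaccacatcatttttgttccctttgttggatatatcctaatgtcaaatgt
Ctla4 (chr1:60908775-60909074, plus strand): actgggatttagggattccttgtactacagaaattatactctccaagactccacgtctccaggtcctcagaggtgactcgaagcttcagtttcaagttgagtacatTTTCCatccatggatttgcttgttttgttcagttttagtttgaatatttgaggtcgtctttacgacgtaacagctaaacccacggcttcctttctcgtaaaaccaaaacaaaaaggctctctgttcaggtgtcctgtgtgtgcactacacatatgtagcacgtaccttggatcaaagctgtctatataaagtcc
Tigit (chr16:43664135-43664434, minus strand): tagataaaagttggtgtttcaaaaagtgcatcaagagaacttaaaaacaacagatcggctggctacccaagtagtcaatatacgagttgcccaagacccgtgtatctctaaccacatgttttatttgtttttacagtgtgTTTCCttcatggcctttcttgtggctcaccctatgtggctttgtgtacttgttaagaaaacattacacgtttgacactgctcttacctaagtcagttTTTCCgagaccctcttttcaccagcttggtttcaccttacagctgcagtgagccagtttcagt
Cd274 and Tigit held 2 such cores each, and Pdcd1lg2 and Ctla4 held 1 each. The core is in 61.3% of all 32851 RefSeq promoters of the same length, so it is common. A gamma-activated site (TTCNNNGAA, 8.30% of promoters), an interferon response element (3.44%), an AP-1 site (TGANTCA, 7.81%) and a forkhead site (TGTTTAC, 3.65%) were searched on both strands and had no match in the 4 printed windows. The RefSeq start of Ctla4 lies inside the longer gene span given by GENCODE.

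RNA of 6 of the 9 checkpoint genes was at least 1.5-fold lower in the treated than in the PBS library, and none was 1.5-fold higher. Of 20415 genes with at least 20 UMIs, 19.4% were at least 1.5-fold lower and 13.4% at least 1.5-fold higher. The median log2 ratio was -0.99 over the 9 genes and -0.19 over all 20415. Fewer cells of a type and less RNA per cell cannot be told apart in such sums. T, NK and type 2 innate lymphoid-like cells made up 10.7% of treated and 25.2% of PBS cells, and neutrophil-like cells made up 36.0% of treated and 12.4% of PBS cells.

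Cd274, which encodes PD-L1, had 2901 UMIs in the treated library, 62.4 CPM (60.2 to 64.7), and 3499 UMIs in the PBS library, 76.8 CPM (74.2 to 79.3). Its ratio, treated over PBS, was 0.813 (0.774 to 0.854). Pdcd1lg2, which encodes PD-L2, had 9.55 CPM (8.69 to 10.5) in the treated and 17.2 CPM (16.0 to 18.4) in the PBS library, a ratio of 0.556 (0.494 to 0.626). Both ligands were lower in the treated library, PD-L2 more so, and the intervals of their ratios did not overlap.

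Among receptors, Ctla4, which competes with CD28 for its ligands, had 36.4 CPM in the treated and 72.5 CPM in the PBS library. Pdcd1, the gene of PD-1, had 7.64 CPM in the treated and 15.2 CPM in the PBS library, and the ratio was 0.502 for each of the 2 genes. Tigit, a receptor for CD155, had 12.9 CPM in the treated and 28.9 CPM in the PBS library, a ratio of 0.448 (0.406 to 0.494). These 3 receptor genes stood at about the same fraction of their PBS level. Btla, which binds the herpesvirus entry mediator, had 14.7 CPM in the treated and 31.4 CPM in the PBS library, a ratio of 0.469 (0.427 to 0.514). Cd160, which shares that ligand, had 48 UMIs in the treated and 122 UMIs in the PBS library, a ratio of 0.386 (0.270 to 0.543). Havcr2, the gene of TIM-3, had 26.6 CPM in the treated and 38.9 CPM in the PBS library, a ratio of 0.684 (0.635 to 0.735). These ratios were below 1 by more than counting error. Lag3, a receptor that binds MHC class II, had 3.33 CPM in the treated and 3.82 CPM in the PBS library, and its ratio of 0.874 (0.699 to 1.09) had an interval that held 1.

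**Figure D1:**
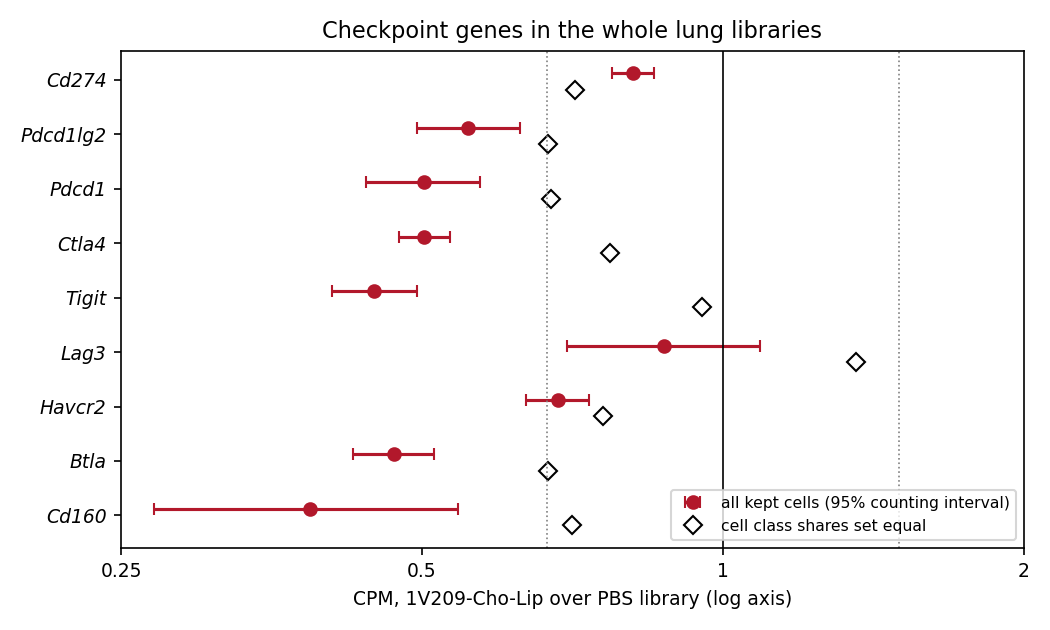
Ratio of CPM, 1V209-Cho-Lip over PBS library, for each checkpoint gene on a log axis, over all kept cells with its 95% counting interval (red) and with the shares of cell classes set equal (open diamonds). Dotted lines mark 1.5-fold. Tigit is at 0.448 over all cells and 0.952 with equal shares, and Lag3 at 0.874 and 1.36.

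With the shares of the cell classes set equal in both libraries, the ratios of 7 of the 9 genes were nearer to 1. These ratios weight each class by its share of cells, whereas the whole-library ratios weight it by its UMIs. The effect of equal shares and that of the weighting cannot be told apart, and these ratios carry no interval. Tigit stood at 0.952 and Ctla4 at 0.771, so neither was 1.5-fold lower. Pdcd1 was at 0.673, Pdcd1lg2 at 0.669 and Btla at 0.668, just short of that fold, and Cd160 was at 0.706. Havcr2 was at 0.758. Cd274 was farther from 1, at 0.711. Lag3 was at 1.36, on the other side of 1 from its whole-library ratio, the interval of which held 1.

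Within the 23 classes that had at least 50 cells in each library, 78 pairs of a gene and a class had 20 UMIs or more. Of these, 23 were at least 1.5-fold lower and 7 at least 1.5-fold higher in treated cells with an interval that left out 1. The share of all genes that met both conditions was not counted, so whether these numbers are unusual cannot be said. Shares of all genes given below for single classes use the fold alone. Receptor genes of lymphocytes at or under the background level of AT2-like or neutrophil-like cells were not called. For Ctla4 that background was 5.31 CPM in treated and 5.33 CPM in PBS AT2-like cells, with UMIs in 3.48% of treated and 1.81% of PBS cells at median depths of 9012 and 6505 UMIs. Neutrophil-like cells had Ctla4 at 1.78 CPM in treated and 0.859 CPM in PBS cells, with UMIs in 0.383% of treated and 0.128% of PBS cells at 2285 and 1385 UMIs. UMIs of the other lymphocyte receptor genes appeared in at most 2.61% of either class in either library. T-cell classes were somewhat deeper in the treated library, for instance a median of 3777 UMIs in treated and 2990 in PBS CD8 T-like cells, so shares of cells are also given after thinning.

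**Figure D2:**
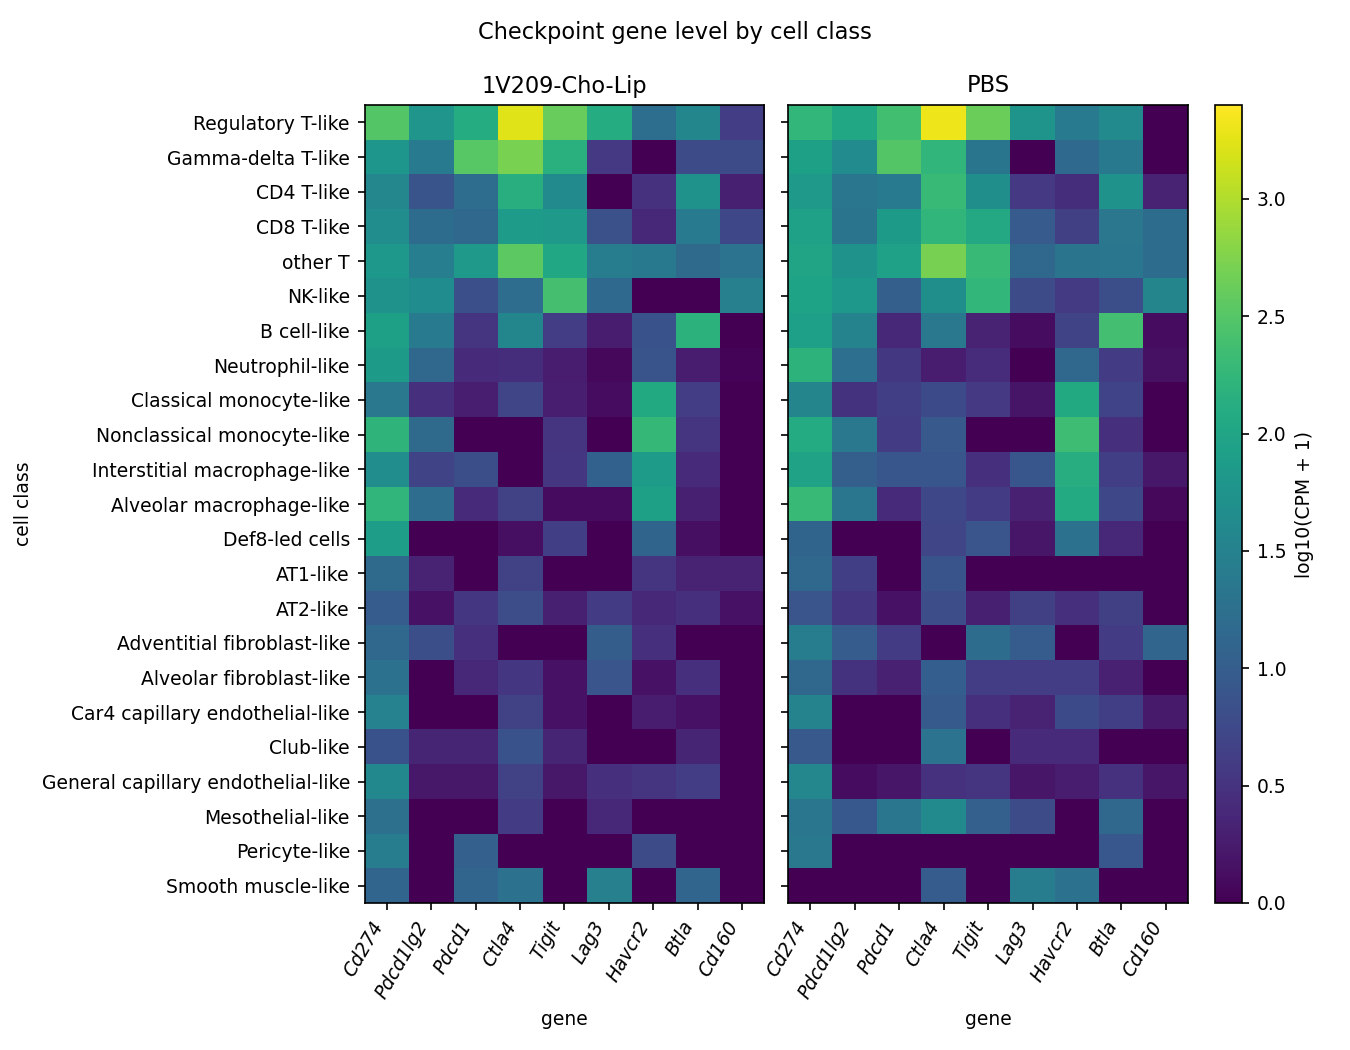
Level of the 9 checkpoint genes as log10(CPM + 1) in the 23 cell classes of the 1V209-Cho-Lip library (left) and the PBS library (right). Ctla4 in regulatory T-like cells is the brightest square in both panels (1702 and 2059 CPM), Havcr2 is bright in monocyte-like and macrophage-like cells, and Btla in B cell-like cells.

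The ligand Cd274 was spread over many classes, and neutrophil-like and alveolar macrophage-like cells held the greatest shares of its UMIs. Neutrophil-like cells held 27.2% of its treated and 10.3% of its PBS UMIs, and alveolar macrophage-like cells held 23.1% of its treated and 31.2% of its PBS UMIs. In alveolar macrophage-like cells the level was 172 CPM (159 to 185) in treated and 197 CPM in PBS cells, a ratio of 0.870 (0.789 to 0.958). UMIs were found in 57.1% of treated and 56.9% of PBS alveolar macrophage-like cells. The highest level of all was in mature DC-like cells, migratory dendritic cells that carry Ccr7, at 419 CPM (329 to 525) in 21 treated cells and 495 CPM (416 to 584) in 41 PBS cells. Those intervals overlapped.

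In the order of the larger classes, regulatory T-like cells led among treated cells at 304 CPM (246 to 371), clear of alveolar macrophage-like cells. Treated nonclassical monocyte-like cells followed at 163 CPM (127 to 206), not apart from the macrophages. Among PBS cells alveolar macrophage-like cells led. Regulatory T-like cells at 176 CPM (145 to 211), neutrophil-like cells at 155 CPM (139 to 172) and nonclassical monocyte-like cells at 123 CPM (103 to 147) came after, each overlapping the class before it.

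Cd274 in neutrophil-like cells stood at 70.0 CPM (65.2 to 75.1) in treated and 155 CPM in PBS cells, a ratio of 0.452 (0.398 to 0.513). Different clusters held most of this class in each library. A cluster led by Il23a and Gm37199 held 771 of 4443 treated and 1166 of 1564 PBS neutrophil-like cells. In it Cd274 was at 151 CPM in treated and 181 CPM in PBS cells, a ratio of 0.834 (0.692 to 1.00). Clusters led by Gm29264 and by S100a9, which together held 2122 treated and 168 PBS cells, had 47.9 CPM and 46.2 CPM in treated cells. The ratio of the class was 0.835 with cluster shares set equal. Of 5 checkpoint genes measured in neutrophil-like cells 3 had ratios at least 1.5-fold lower, Pdcd1, Cd274 and Havcr2, and 1 higher, Ctla4, where 23.7% of 10498 genes were lower and 10.4% higher. Pdcd1 and Ctla4 were at background level there, with intervals that held 1, and neither is among the called pairs.

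In regulatory T-like cells Cd274 was higher in the treated library, by a ratio of 1.73 (1.30 to 2.29). It was found in 40.0% of treated and 28.7% of PBS cells, and after thinning every cell to 1000 UMIs in 21.7% of treated and 14.3% of PBS cells. The ratio was under 1.5 with called doublets kept (1.45), with thinning (1.48), when CPM was averaged over cells (1.45) and with a marker gate on each cell (1.18). Of 7 mature DC markers Ccl22, Il4i1, Cacnb3 and Nudt17 had no UMI in this class in either library. Ccr7, which T cells also express, had 688 CPM in treated and 498 CPM in PBS cells, Socs2 had 57.6 CPM in treated and 65.3 CPM in PBS cells, and Fscn1 had 1 UMI in each library. The 6 neutrophil markers summed to 576 CPM in treated and 80.9 CPM in PBS regulatory T-like cells, and their part in the result was not tested.

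Cd274 was lower in the other named lymphoid and phagocyte classes that passed 1.5-fold. CD8 T-like cells had 45.7 CPM in treated and 88.6 CPM in PBS cells, a ratio of 0.516 (0.340 to 0.758). CD4 T-like cells had 36.7 CPM in treated and 69.0 CPM in PBS cells, a ratio of 0.533 (0.404 to 0.696). With cluster shares set equal the ratio was 0.688 in CD8 T-like and 0.717 in CD4 T-like cells, short of 1.5-fold. NK-like cells had 54.1 CPM in treated and 93.1 CPM in PBS cells, a ratio of 0.581 (0.375 to 0.872). In interstitial macrophage-like cells Cd274 had 45.8 CPM in treated and 88.9 CPM in PBS cells (0.515, 0.371 to 0.706). UMIs were in 16.3% of treated and 16.1% of PBS cells of that class, at median depths of 5691 and 3817 UMIs. After thinning the shares were 3.27% (1.07 to 7.46) in treated and 5.16% (2.61 to 9.05) in PBS cells. CPM averaged over cells gave a ratio of 0.690. In that class the 6 neutrophil markers summed to 7949 CPM in treated and 1290 CPM in PBS cells. The 7 NK markers summed to 41.0 CPM in treated and 196 CPM in PBS cells. Classical monocyte markers went both ways. Ly6c2 had 62.7 CPM in treated and 246 CPM in PBS cells, Ccr2 196 and 227 CPM, and Vcan 10.4 and 14.9 CPM. Fn1 had 923 CPM in treated and 497 CPM in PBS cells, and F13a1 462 and 402 CPM. The part of all these markers in the result was not tested. Classical monocyte-like cells had 21.8 CPM in treated and 34.3 CPM in PBS cells (0.636, 0.446 to 0.910), and without the cell richest in Cd274 in each library the ratio was 0.709 and with a marker gate 0.879. B cell-like cells were level, at 84.3 CPM (72.7 to 97.3) in treated and 82.7 CPM (73.5 to 92.9) in PBS cells.

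A cluster led by Def8, with a median depth of 53771 UMIs in treated and 18530 UMIs in PBS cells, went the other way. Cd274 had 76 CPM (66.0 to 87.1) in its treated and 11.5 CPM (8.99 to 14.4) in its PBS cells, a ratio of 6.63 (5.06 to 8.77). The UMIs came from 14 of 56 treated and 39 of 194 PBS cells, and 5 treated cells held 86.0% of the 207 treated UMIs. Averaged over cells' own CPM the ratio was 3.56, and with a marker gate 3.85. The part of depth in this result was not tested. Without the Def8-led cells the whole-library ratio of Cd274 was 0.703.

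**Figure D3:**
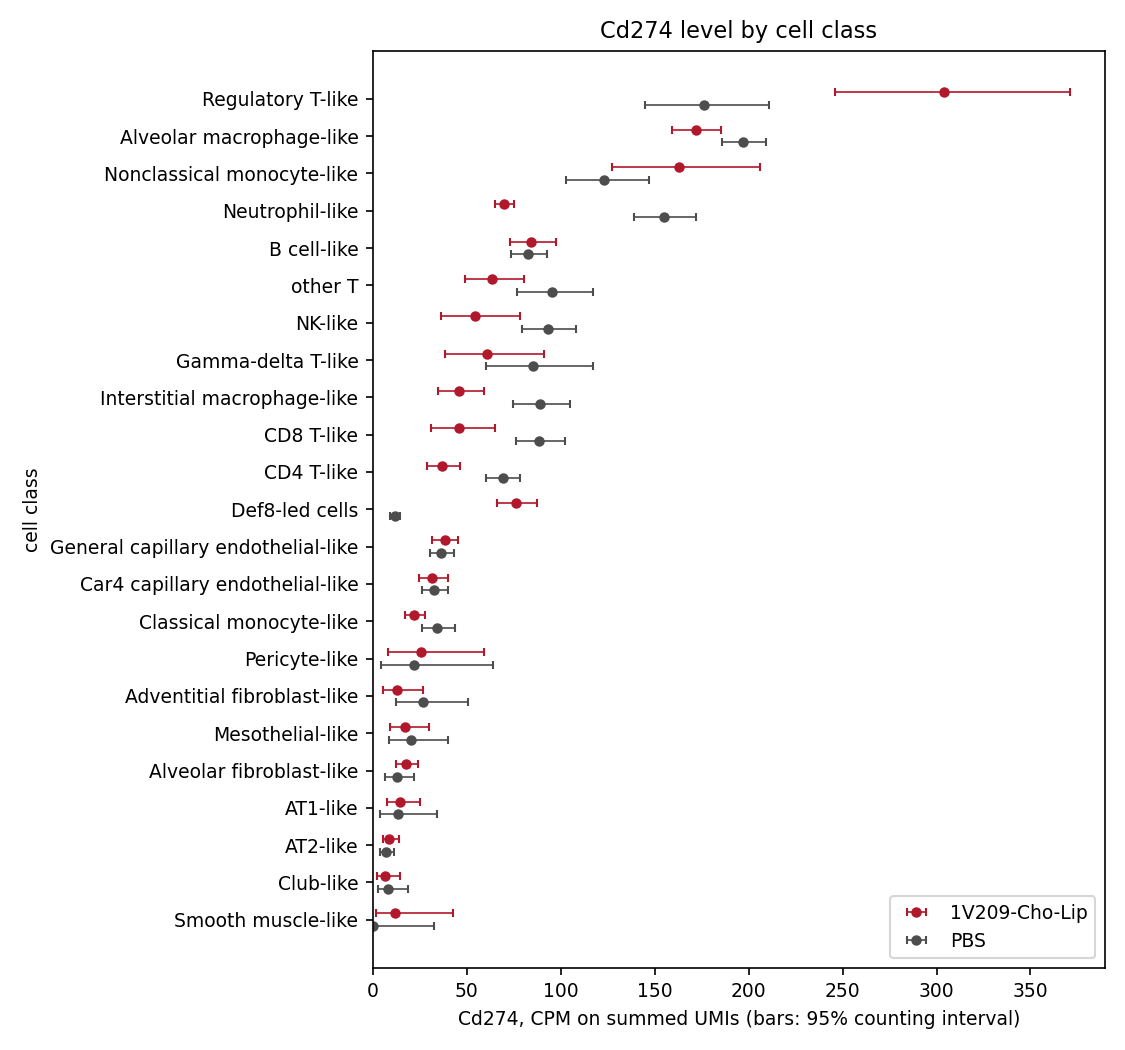
Cd274 level (CPM on summed UMIs, bars 95% counting interval) in the 23 cell classes, 1V209-Cho-Lip above PBS in each row. Regulatory T-like cells (304 and 176 CPM) and Def8-led cells (76 and 11.5 CPM) are higher in the 1V209-Cho-Lip library, and neutrophil-like cells (70.0 and 155 CPM) are lower.

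Pdcd1lg2, the other PD-1 ligand, also had its highest level in mature DC-like cells, with 162 CPM (108 to 233) in treated and 171 CPM (126 to 227) in PBS cells. Type 2 innate lymphoid-like cells came next, at 83.1 CPM (33.4 to 171) in 31 treated and 141 CPM (88.4 to 214) in 57 PBS cells. Among the larger classes regulatory T-like cells led, at 57.6 CPM (34.1 to 91.0) in treated and 109 CPM (84.9 to 138) in PBS cells, a ratio of 0.529 (0.296 to 0.898). NK-like cells followed at 44.5 CPM in treated and 63.8 CPM in PBS cells, overlapping the regulatory T-like cells in the treated library. In regulatory T-like cells the 2 ligand genes thus went opposite ways between the libraries. CD4 T-like cells had the lowest ratio, 0.315 (0.160 to 0.574), with 6.54 CPM in treated and 20.8 CPM in PBS cells. It was 0.494 after thinning. Pdcd1 in CD4 T-like cells had 15.6 CPM in treated and 25 CPM in PBS cells, a ratio of 0.624 (0.399 to 0.953), which was 0.741 after thinning and 0.949 with a marker gate.

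Pdcd1 was concentrated in T-cell classes. A class led by Il17a, and named gamma-delta T-like from Trdc, Trdv4 and Il17a, had the highest level in both libraries, 323 CPM (269 to 386) in treated and 308 CPM (258 to 364) in PBS cells. Among the other classes with 50 cells, regulatory T-like cells came next, with 125 CPM (88.7 to 171) in treated and 232 CPM (196 to 272) in PBS cells, a ratio of 0.538 (0.368 to 0.770). That ratio was 0.707 after thinning, and 5 treated cells held 71.8% of the 39 treated UMIs. Type 2 innate lymphoid-like cells also held the gene, at 178 CPM (99.7 to 294) in treated and 103 CPM (58.7 to 167) in PBS cells.

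In CD8 T-like cells Pdcd1 had 9 UMIs in 175 treated cells, 13.3 CPM (6.07 to 25.2), and 145 UMIs in 618 PBS cells, 71.3 CPM (60.2 to 83.9). The ratio of 0.186 (0.0833 to 0.363) was the lowest of the 30 called pairs. UMIs were in 4.0% of treated and 11.7% of PBS cells, and after thinning in 1.16% of treated and 6.46% of PBS cells. A cluster led by Gzmk, the gene of a granzyme of effector-memory T cells, held 8 of the 9 treated and 135 of the 145 PBS UMIs. It made up 12% of treated (21 cells) and 33.0% of PBS (204 cells) CD8 T-like cells. Within the Gzmk-led cluster Pdcd1 was at 91.5 CPM in treated and 198 CPM in PBS cells, a ratio of 0.461 (0.195 to 0.935). The other CD8 cluster had 1.69 CPM in treated and 7.40 CPM in PBS cells. The class ratio was 0.435 with cluster shares set equal, 0.464 with a marker gate on each cell, 0.369 at Leiden resolution 1 and 0.291 with called doublets kept.

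CD8 T-like cells held less of 4 further checkpoint genes as well: 5 of 8 measured were at least 1.5-fold lower and none higher, where 11.4% of 8453 genes were lower and 12.6% higher. Ctla4 had 72.2 CPM (53.4 to 95.5) in treated and 172 CPM (155 to 191) in PBS cells, a ratio of 0.419 (0.304 to 0.567). In the larger CD8 cluster Ctla4 was at 47.4 CPM in treated and 93.9 CPM in PBS cells, a ratio of 0.504 (0.322 to 0.764). Tigit had 67.8 CPM in treated and 111 CPM in PBS cells, a ratio of 0.612 (0.436 to 0.844), and the ratio was 0.905 with cluster shares set equal. Cd160, with 3 treated and 30 PBS UMIs, had a ratio of 0.300 (0.0585 to 0.963). Not all receptors were lower here: Btla was at 23.6 CPM (13.5 to 38.3) in treated and 21.6 CPM (15.7 to 29.1) in PBS cells. The 7 NK markers summed to 84.0 CPM in treated and 277 CPM in PBS CD8 T-like cells, with Gzma at 31.0 CPM in treated and 219 CPM in PBS cells and Prf1 at 51.6 CPM in treated and 54.6 CPM in PBS cells. Klra8 and Klra4 had no UMI in either library. The 6 neutrophil markers summed to 517 CPM in treated and 87.1 CPM in PBS cells. The part of these genes in the ratios was not tested.

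Ctla4 was highest in regulatory T-like cells, with 1702 CPM (1560 to 1852) in treated and 2059 CPM (1950 to 2173) in PBS regulatory T-like cells, with UMIs in 91.8% of treated and 90.4% of PBS cells. The ratio of 0.826 (0.746 to 0.914) was short of 1.5-fold. These cells were 0.689% of treated and 1.65% of PBS cells and held 31.4% of treated and 40.1% of PBS Ctla4 UMIs. In CD4 T-like cells Ctla4 had 137 CPM (122 to 155) in treated and 195 CPM (180 to 210) in PBS cells, a ratio of 0.706 (0.611 to 0.815). Different clusters held most of that class, a Trbv31-led one with 69.3% of treated and a Trbv20-led one with 62.3% of PBS CD4 T-like cells. Lef1, Tcf7, Cd4 and Dapl1 were among the leading genes of both. The Trbv31-led cluster had 442 treated and 90 PBS cells, and the Trbv20-led one 61 treated and 809 PBS cells. A CD4 cluster led by Ccr4 and Il2 had 401 CPM in treated and 389 CPM in PBS cells, with a ratio of 1.03 (0.831 to 1.27).

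Ctla4 went the other way in the Il17a-led, gamma-delta T-like class. It had 518 CPM (448 to 596) in 87 treated and 171 CPM (135 to 214) in 143 PBS cells, a ratio of 3.03 (2.32 to 4.01), and 2.02 with called doublets kept. UMIs were in 41.4% of treated and 19.6% of PBS cells, and after thinning in 25.9% of treated and 12% of PBS cells. Tigit had 54 treated UMIs, 142 CPM (107 to 185), and 9 PBS UMIs, 20.2 CPM (9.25 to 38.4). The Tigit ratio of 7.02 (3.44 to 16.2) was 2.43 with called doublets kept and turned to 0.636 when cells were assigned one by one by a marker gate. In this class 2 of 5 checkpoint genes had ratios at least 1.5-fold higher and 1 lower, Pdcd1lg2, where 18.4% of 5472 genes were higher and 10.3% lower. The interval of Pdcd1lg2 held 1 (0.221 to 1.29).

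The make-up of the Il17a-led class differed between the libraries. Trdc, the constant segment of the delta chain, had 89.4 CPM in treated and 234 CPM in PBS cells. Trdv4, a delta variable segment, had 153 CPM in treated and 674 CPM in PBS cells. Il17a, the other marker of the name, went the other way, with 1049 CPM in treated and 771 CPM in PBS cells. Of the CD4 T markers, Cd4 had 97.3 CPM in treated and 51.7 CPM in PBS cells. Cd40lg had 263 CPM in treated and 110 CPM in PBS cells, and Trac 139 and 85.4 CPM. Cd3d (600 and 602 CPM) and Cd3e (1360 and 1440 CPM) were near level. Foxp3, the regulatory T-cell factor, had 3 UMIs in each library. Cells with a UMI of Trdc or Trdv4 were 21.8% of the treated and 51.7% of the PBS class. Most treated cells of the class named gamma-delta T-like thus had no UMI of either gene, and other delta segments were not counted.

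Divided by detection of these segments, a split chosen after the values were seen, the class showed where Ctla4 and Tigit lay. In cells without a UMI of either gene Ctla4 was at 616 CPM (532 to 710) in 68 treated and 199 CPM (145 to 267) in 69 PBS cells. In cells with one it was at 72.7 CPM (23.6 to 170) in 19 treated and 143 CPM (97.6 to 201) in 74 PBS cells. The cells without one held 192 of the 197 treated Ctla4 UMIs and 50 of the 54 treated Tigit UMIs. Tigit in those cells was at 161 CPM (119 to 212) in treated and 9.06 CPM (1.10 to 32.7) in PBS cells. Pdcd1 was high in the cells with a UMI of Trdc or Trdv4, at 611 CPM (440 to 826) in treated and 450 CPM (367 to 547) in PBS cells. In the cells without one Pdcd1 was at 260 CPM (207 to 323) in treated and 163 CPM (114 to 226) in PBS cells.

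**Figure D4:**
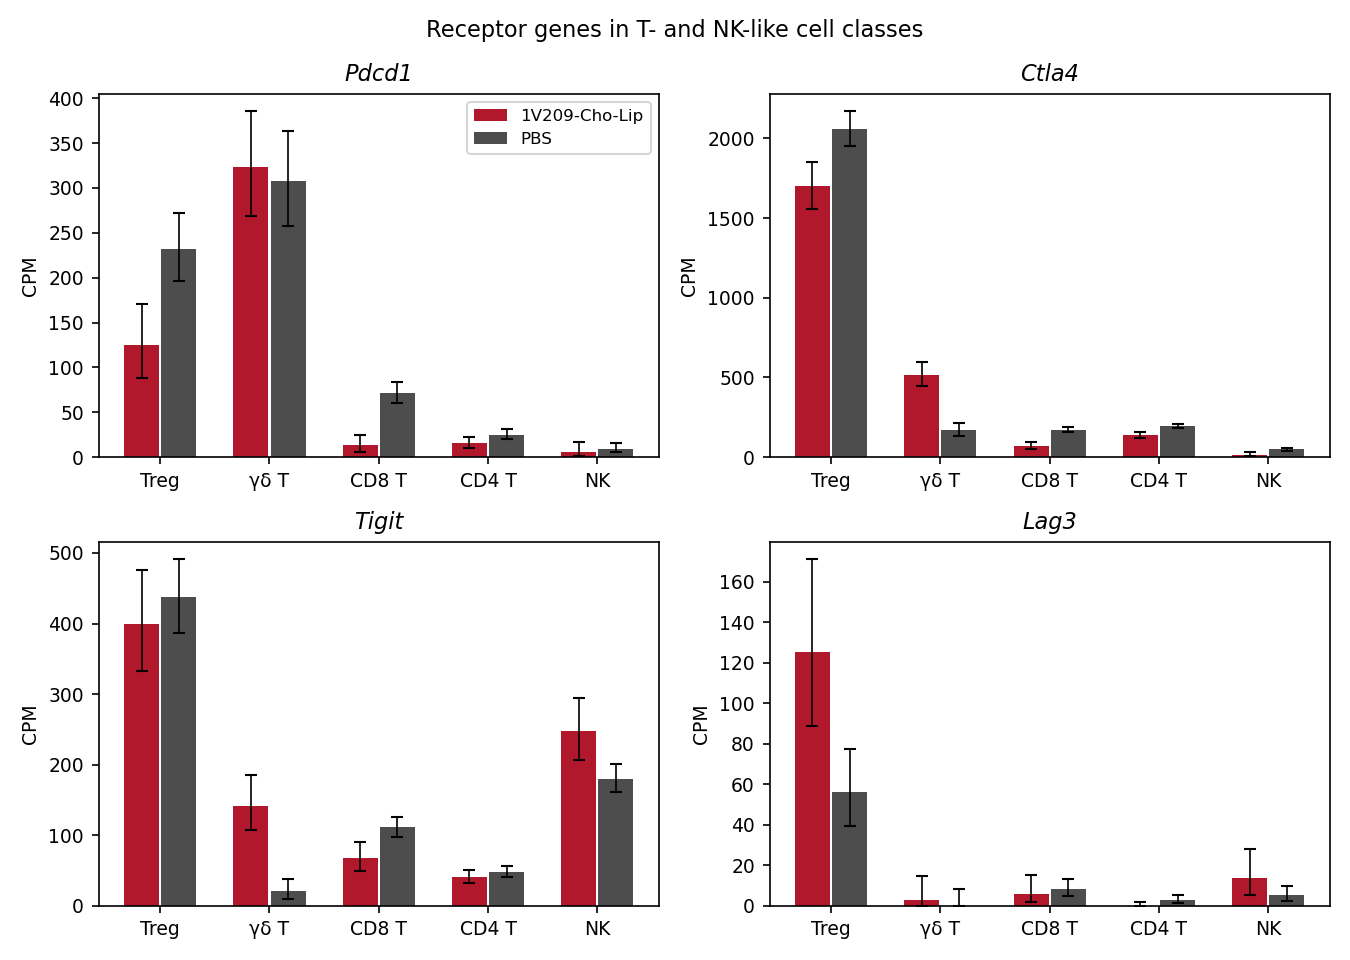
CPM of Pdcd1, Ctla4, Tigit and Lag3 in 5 T- and NK-like cell classes, 1V209-Cho-Lip (red) left of PBS (grey), with 95% counting intervals. Treg stands for regulatory T-like cells and γδ T for the Il17a-led, gamma-delta T-like class. Ctla4 (518 and 171 CPM) and Tigit (142 and 20.2 CPM) are higher in the γδ T class, and Pdcd1 (13.3 and 71.3 CPM) is lower in CD8 T-like cells.

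Tigit was highest in regulatory T-like cells in both libraries, with NK-like cells next among treated cells. Regulatory T-like cells had 400 CPM (333 to 476) in treated and 437 CPM (387 to 491) in PBS cells, and the intervals overlapped. NK-like cells had 248 CPM (206 to 294) in treated and 180 CPM (161 to 201) in PBS cells, a ratio of 1.37 (1.11 to 1.69), with UMIs in 37.9% of treated and 27.2% of PBS cells. A Gzma-led cluster, the largest of the NK clusters, had Tigit at 245 CPM in treated and 126 CPM in PBS cells, a ratio of 1.95 (1.49 to 2.54). An Xcl1-led NK cluster had 301 CPM in treated and 292 CPM in PBS cells. T cells of no named subset, level with NK-like cells in the PBS library, were lower, with 106 CPM (87.2 to 127) in treated and 200 CPM (173 to 231) in PBS cells. Their ratio of 0.529 (0.414 to 0.672) was 0.685 at Leiden resolution 1 and 0.728 with cluster shares set equal. In NK-like cells Cd274 and Ctla4 were 1.5-fold lower among 6 measured checkpoint genes, and none was higher, where 9.57% of 8565 genes were lower and 14.6% higher. Ctla4 in NK-like cells was at 15.5 CPM in treated and 49.1 CPM in PBS cells (0.315, 0.132 to 0.649), and at 0.622 with a marker gate on each cell.

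Lag3 had its highest level among the larger classes in regulatory T-like cells, 125 CPM (88.7 to 171) in treated and 56.0 CPM (39.2 to 77.5) in PBS cells, a ratio of 2.23 (1.38 to 3.61). The 39 treated UMIs lay in 10 of 85 cells, 5 of which held 79.5% of them, and the 36 PBS UMIs lay in 19 cells. The shares of cells were 11.8% in treated and 9.09% in PBS regulatory T-like cells. Plasmacytoid DC-like cells, which are known to carry LAG-3, had 63.5 CPM (25.5 to 131) in 32 treated and 89.6 CPM (60.9 to 127) in 82 PBS cells. In regulatory T-like cells 2 of 8 checkpoint genes were 1.5-fold higher, Cd274 and Lag3, and 2 lower, Pdcd1 and Pdcd1lg2, where 17.6% of 5945 genes were higher and 9.71% lower.

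Havcr2 was high in myeloid classes. Type 1 conventional DC-like cells had 260 CPM (212 to 316) in treated and 259 CPM (210 to 316) in PBS cells. Nonclassical monocyte-like cells led the larger classes at 184 CPM (146 to 229) in treated and 220 CPM (192 to 251) in PBS cells, and classical monocyte-like cells had 115 CPM (103 to 127) in treated and 116 CPM (101 to 133) in PBS cells. The intervals overlapped in each of these 3 classes. Interstitial macrophage-like cells had 73.1 CPM (58.9 to 89.8) in treated and 129 CPM (111 to 148) in PBS cells, a ratio of 0.569 (0.439 to 0.733). Alveolar macrophage-like cells had 85.9 CPM (77.0 to 95.6) in treated and 118 CPM (109 to 127) in PBS cells, a ratio of 0.731 (0.639 to 0.835). Levels in both macrophage classes were thus lower by more than counting error, and the first passed 1.5-fold. In interstitial macrophage-like cells UMIs were in 27.7% (21.1 to 35.2) of treated and 32.2% (26.7 to 38.1) of PBS cells. After thinning the shares were 5.23% (2.28 to 10.0) in treated and 7.98% (4.72 to 12.5) in PBS cells. The intervals of these shares overlapped. The part of the other-cell markers given above for this class was not tested. In CD8 T-like cells TIM-3 RNA was scarce, with 1 treated and 7 PBS UMIs.

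Counts in the phagocyte classes are given side by side, and the difference between classes was not tested. In interstitial macrophage-like cells 3 of 4 measured had ratios at least 1.5-fold lower, Cd274, Pdcd1lg2 and Havcr2, and none higher, where 9.39% of 9157 genes were lower and 13.3% higher. Pdcd1lg2, with 5 treated and 15 PBS UMIs, had a ratio of 0.412 (0.117 to 1.19), an interval that held 1. Classical monocyte-like cells had 1 of 3 lower, Cd274, where 7.45% of 9501 genes were lower and 12.0% higher. Nonclassical monocyte-like cells had none of 3 past 1.5-fold, where 9.71% of 6794 genes were lower and 13.2% higher. Alveolar macrophage-like cells had 1 of 5 lower, Btla at 1.02 CPM in treated and 4.51 CPM in PBS cells, both at background level, where 6.20% of 11276 genes were lower and 9.53% higher. Among T cells, CD4 T-like cells had 3 of 6 lower, Pdcd1, Cd274 and Pdcd1lg2, where 5.62% of 10072 genes were lower and 12.3% higher.

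Btla was high in B cell-like and dendritic cells. B cell-like cells had 151 CPM (135 to 168) in treated and 239 CPM (223 to 256) in PBS cells, a ratio of 0.632 (0.556 to 0.719), and held 49.3% of treated and 58.1% of PBS Btla UMIs. UMIs were in 32.5% of treated and 37.9% of PBS B cell-like cells, and after thinning in 14.7% of treated and 22.2% of PBS cells. CPM averaged over cells gave a ratio of 0.676, short of 1.5-fold. Type 1 conventional DC-like cells had 207 CPM (165 to 257) in treated and 176 CPM (136 to 224) in PBS cells. CD4 T-like cells had 53.4 CPM (43.7 to 64.5) in treated and 54.2 CPM (46.6 to 62.8) in PBS cells. The lower Btla was thus seen in B cell-like cells and not, beyond counting error, in these 2 classes. In B cell-like cells 1 of 5 checkpoint genes had a ratio at least 1.5-fold lower, Btla, and 2 higher, Ctla4 and Havcr2, where 6.45% of 10648 genes were lower and 12.8% higher. Havcr2, with 14 UMIs in treated and 14 in PBS cells, had an interval that held 1 (0.690 to 3.53). Ctla4 in B cell-like cells was at 35.9 CPM in treated and 22.1 CPM in PBS cells, 5 cells held 58.8% of treated and 61.0% of PBS UMIs, and the ratio of 1.62 was 1.43 with called doublets kept, 1.17 with cluster shares set equal and 1.07 after thinning.

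Cd160 UMIs lay mostly in lymphoid classes. T cells of no named subset held 41.7% of treated and 11.5% of PBS UMIs, NK-like cells 15 of 48 treated and 61 of 122 PBS UMIs, and CD8 T-like cells 6.25% of treated and 24.6% of PBS UMIs. In NK-like cells the level was 29.0 CPM (16.2 to 47.8) in treated and 34.4 CPM (26.3 to 44.2) in PBS cells, and these intervals overlapped. NK-like cells were 1.37% of treated and 5.65% of PBS cells.

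Detection of several inhibitory receptors in the same cell was counted for Pdcd1, Ctla4, Lag3, Havcr2 and Tigit. At least 2 of these 5 genes were seen in 51.8% (40.7 to 62.7) of treated and 56.0% (49.0 to 62.8) of PBS regulatory T-like cells. In CD8 T-like cells the shares were 6.86% (3.59 to 11.7) in treated and 14.9% (12.2 to 17.9) in PBS cells, and after thinning 0 of 173 treated cells (0 to 2.11, and up to 1.73% if 3 counts are allowed for a count of 0) and 4.47% of PBS cells (2.97 to 6.44). In the Il17a-led class the shares were 28.7% (19.5 to 39.4) in treated and 10.5% (5.99 to 16.7) in PBS cells, and after thinning 9.41% of treated and 2.82% of PBS cells. In the counts as deposited the share was lower in treated CD8 T-like and higher in treated Il17a-led cells, with intervals that did not overlap. After thinning the intervals of the Il17a-led class overlapped (4.15 to 17.7 in treated and 0.773 to 7.06 in PBS cells). CD4 T-like cells, at 5.17% in treated and 5.78% in PBS cells, and NK-like cells, at 4.14% in treated and 4.48% in PBS cells, had overlapping intervals. AT2-like cells had 2 of these genes in 0 of 230 treated cells (0 to 1.59, and up to 1.30% if 3 counts are allowed) and in 0.722% of PBS cells.

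**Figure D5:**
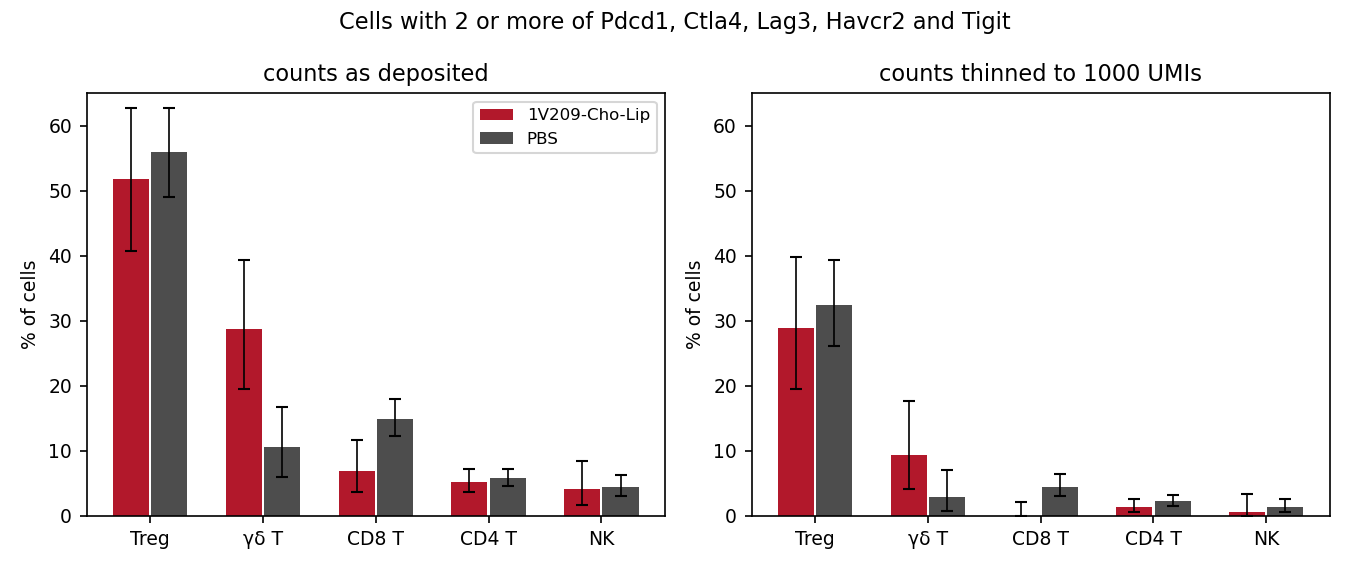
Share of cells with UMIs of at least 2 of Pdcd1, Ctla4, Lag3, Havcr2 and Tigit, in counts as deposited (left) and thinned to 1000 UMIs per cell (right), 1V209-Cho-Lip (red) left of PBS (grey), with 95% Clopper-Pearson intervals. In the deposited counts the share is lower in 1V209-Cho-Lip CD8 T-like cells (6.86% and 14.9%) and higher in the γδ T class (28.7% and 10.5%).

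Genes whose level across classes was most like that of each checkpoint gene were ranked by Pearson's r of log2(CPM + 1) over 46 points, 23 classes in each of 2 libraries, among 13536 genes. The points share libraries and depth, so r is a description. Ctla4 was most like Icos, the inducible co-stimulator, at r = 0.898. Pdcd1 was most like the transcript 1700097N02Rik at 0.885 and the chemokine receptor gene Ccr4 at 0.880. Tigit was most like Sh2d1a, an adaptor gene of T and NK cells, at 0.942, and Havcr2 was most like Ticam2, an adaptor gene of Toll-like receptor signalling, at 0.868. Btla was most like Pacsin1 at 0.843 and Ccr7 at 0.834. Lag3 was most like Itgb8 at 0.740, Cd274 most like Csk at 0.841, and Pdcd1lg2 most like Dock2 at 0.888. Cd160 had fewer than the 200 UMIs needed.

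Of 18 measured partner ligands and receptors, 4 were at least 1.5-fold lower in the whole treated library and 1 was higher, where 19.4% of all genes were lower and 13.4% higher, so the count was near that of all genes. The median log2 ratio of the list was -0.10. The lower genes were Cd28 and Icos, which encode co-stimulatory receptors, and Cd96 and Cd226, which share ligands with TIGIT. Icos, Cd96 and Cd226 were named after their values were seen. Cd28 had 34.9 CPM in the treated and 80.6 CPM in the PBS library, the lowest ratio at 0.433. Ligands of CTLA-4 did not pass 1.5-fold in the whole library. Cd86 had 94.6 CPM in the treated and 116 CPM in the PBS library, and Cd80 had 101 CPM in the treated and 73.5 CPM in the PBS library. In neutrophil-like cells, which held 2669 of 4682 treated Cd80 UMIs, Cd80 was lower. It had 237 CPM in treated and 563 CPM in PBS cells there, a ratio of 0.421 (0.394 to 0.451). Its ratio was 1.01 in alveolar macrophage-like and 1.51 (1.13 to 2.03) in B cell-like cells. Lgals9, a ligand of TIM-3, had 150 CPM in the treated and 141 CPM in the PBS library. Vsir, the gene of VISTA, had 101 CPM in the treated and 75.2 CPM in the PBS library. Vtcn1 was the gene higher by 1.5-fold, with 20 treated and 10 PBS UMIs and an interval that held 1 (0.876 to 4.69).

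Among 13 regulators of T-cell activation and exhaustion 5 were at least 1.5-fold lower and none higher, beside the same 19.4% and 13.4% of all genes, with a median log2 ratio of -0.06. In the whole library Eomes, a T-box factor gene of T and NK cells, had the lowest ratio, 0.372. Nr4a1, an early gene of receptor signalling, had the highest, 1.43. Within classes Eomes was not lower, at 1.12 (0.918 to 1.35) in NK-like, 1.14 (0.657 to 1.92) in CD8 T-like and 1.25 (0.757 to 2.08) in other T cells. Nr4a1 was at 0.711 in CD4 T-like, 0.603 in neutrophil-like, 1.20 in CD8 T-like and 2.85 in general capillary endothelial-like cells. Of the 8 genes on the route from interferon-gamma to Cd274, 2 were higher, Socs1 and the receptor subunit gene Ifngr2 (named after its value was seen), and 1 was lower, Ifng, with a median log2 ratio of -0.08. The list is short, and these counts stand beside 13.4% higher and 19.4% lower of all genes. Socs1, which encodes an inhibitor of JAK kinases, had 40.8 CPM in the treated and 5.42 CPM in the PBS library, a ratio of 7.53 (6.59 to 8.63). Ifng had 2.0 CPM in the treated and 5.11 CPM in the PBS library.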

How the data were processed

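Single-cell libraries of pooled lungs, 1 per group, were read as the deposited gene-by-cell matrices of raw UMI counts, which the authors made with Cell Ranger 9.0.1 per the file headers, on mm10 per the submitters' processing notes. No library has a replicate. The checkpoint genes and gene lists were chosen with earlier results of these data known. Cells with at least 500 UMIs, at least 200 genes and at most 20% mitochondrial UMIs were kept. The matrices held 13740 1V209-Cho-Lip and 14622 PBS barcodes. Scrublet marked 1392 (10.1%) of the kept 1V209-Cho-Lip cells and 1918 (13.2%) of the kept PBS cells as doublets, which were left out. Cells were clustered with scanpy 1.11.5 (3105 variable genes, 30 components, 15 neighbours, Leiden resolution 2), leaving the checkpoint genes and the gene lists out of the features. The 51 clusters, 6 of them divided further to give 75, were named from markers. Thresholds for naming and division, and the rule on background level, were set after clusters and values were seen. Levels were summed UMIs as CPM. Ratios carry 95% conditional binomial intervals, Poisson and Clopper-Pearson intervals cover counting error only, and 0.5 counts were added to each side for counts of genes past 1.5-fold. Scripts were tested on simulated data. A ratio in a class is given from 20 UMIs over both libraries. Of each pathway list, genes were named from the 4 with most UMIs and the highest and lowest ratio, and of genes alike across classes from the 3 with the highest r. Of 55357 gene IDs, 52081 matched GENCODE vM21. Python 3.11.15, numpy 2.4.6, scipy 1.17.1 and pandas 2.3.3 were used.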

Additional observations from a re-analysis of the deposited data

Results flagged for a closer look

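The direction of 3 genes differed between cell classes, in pairs past 1.5-fold with an interval off 1. The ratios are 1V209-Cho-Lip over PBS. With 1 library per group, the difference between classes was not tested. Cd274 was higher in Def8-led cells (6.63) and regulatory T-like cells (1.73). It was lower in neutrophil-like (0.452), interstitial macrophage-like (0.515), CD8 T-like (0.516), CD4 T-like (0.533), NK-like (0.581) and classical monocyte-like cells (0.636), and in T cells of no named subset (0.664). With cluster shares set equal the Cd274 ratios in neutrophil-like, CD8 T-like and CD4 T-like cells were short of 1.5-fold. The regulatory T-like ratio was under 1.5 with called doublets kept, with thinning and with a marker gate. Ctla4 was higher in gamma-delta T-like (3.03) and B cell-like cells (1.62), and lower in NK-like (0.315) and CD8 T-like cells (0.419). In gamma-delta T-like cells with a UMI of Trdc or Trdv4 it was at 72.7 CPM in treated and 143 CPM in PBS cells. In those with neither it was at 616 CPM in treated and 199 CPM in PBS cells. The B cell-like ratio was under 1.5 with called doublets kept, after thinning and with cluster shares set equal. Tigit was higher in gamma-delta T-like cells (7.02, which was 2.43 with called doublets kept and turned to 0.636 with a marker gate). It was lower in T cells of no named subset (0.529), in CD8 T-like cells (0.612) and in Def8-led cells (0.474). The first 2 were short of 1.5-fold with cluster shares set equal. In Def8-led cells Tigit was at 3.30 CPM (1.51 to 6.27) in treated and 6.97 CPM (5.08 to 9.32) in PBS cells, near the background limit of 4.40 CPM for this gene.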

How the results depend on the processing

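Ratios are 1V209-Cho-Lip over PBS in the whole libraries unless a class is named. Thinning to 1000 UMIs gave Pdcd1 0.433, Cd274 0.701, Ctla4 0.400, Havcr2 0.517, Tigit 0.399 and Btla 0.361. Trimmed-mean-of-M scaling, which moved log2 ratios by 0.19, gave Pdcd1 0.574, Cd274 0.931, Pdcd1lg2 0.637, Ctla4 0.575, Havcr2 0.782, Tigit 0.513 and Btla 0.537. The mean of each cell's CPM gave Pdcd1 0.428, Cd274 0.717, Ctla4 0.403, Havcr2 0.590, Tigit 0.383 and Btla 0.371. Equal class shares, which weight classes by cells and not by UMIs, gave Pdcd1 0.673, Cd274 0.711, Pdcd1lg2 0.669, Ctla4 0.771, Lag3 1.36, Havcr2 0.758, Tigit 0.952, Btla 0.668 and Cd160 0.706. Without neutrophil-like cells the ratio was Pdcd1 0.603, Pdcd1lg2 0.490, Ctla4 0.622, Havcr2 0.818, Tigit 0.554 and Btla 0.581. Without Def8-led cells it was Cd274 0.703 and Ctla4 0.462, and with called doublets kept Ctla4 0.540 and Tigit 0.501. With no filter on low counts 9133 genes were 1.5-fold lower and 6835 higher, against 3952 and 2734. Tigit in gamma-delta T-like cells turned to 0.636 with a marker gate, against 7.02. The cause was not tested. Of the 30 pairs of a gene and a class past 1.5-fold, all 30 kept their direction at Leiden resolution 1, and 28 stayed past 1.5-fold. With called doublets kept all 30 kept their direction and 25 stayed past 1.5-fold. Equal cluster shares gave 18 a value, of which 17 kept their direction and 7 stayed past 1.5-fold. The marker gate gave 26 a value, of which 25 kept their direction and 20 stayed past 1.5-fold. Equal cluster shares, leaving out the cell richest in the gene and the rule on background level were chosen after seeing the data. No paired analysis was possible because each group is 1 library.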
